A study of Mus musculus with 12 samples.

Results

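The adenylyl cyclase family in the mouse hypothalamus is described here through 8 genes taken by symbol, *Adcy1*, *Adcy2*, *Adcy3*, *Adcy5*, *Adcy6*, *Adcy7*, *Adcy8* and *Adcy9*, out of 16855 genes listed for mice on a chow diet and 16744 for mice on a high-fat diet (HFD). The hypothalamus was taken from 12 male mice of 8 weeks on a C57BL/6J background, in 4 groups of 3. WT (+/+) and *Gpr75-/-* mice stayed on chow, and other WT and *Gpr75-/-* mice ate the HFD for 2 weeks from the age of 6 weeks. GPR75 is a G protein–coupled receptor, and the *Gpr75-/-* allele is a germline CRISPR/Cas9 frameshift early in the coding sequence, so that the receptor is missing from every cell throughout development. The question behind the RNA-Seq was which hypothalamic transcripts differ when the receptor is missing, on each diet. The deposited tables hold 1 value per gene and diet: the mean normalized count over 6 mice, the genotype effect as a log2 fold change (*Gpr75-/-* over WT) with its standard error, and a mean for each group. Values of single mice were not analysed here, so whether the groups of 3 overlap is not known. The mean normalized counts summed to 18280462 on chow and 19420111 on the HFD, the depth of an average library after the authors' scaling.

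Adenylyl cyclases turn ATP into cAMP, the second messenger that activates protein kinase A, and they are the point where stimulatory (Gα_s_, Gα_olf_) and inhibitory (Gα_i_) G proteins meet. The membrane-bound isoforms differ in what else they respond to. ADCY1, ADCY3 and ADCY8 respond to calcium and calmodulin, ADCY2, ADCY4 and ADCY7 are stimulated by Gβγ together with Gα_s_, ADCY5 and ADCY6 are inhibited by calcium and by Gα_i_, and ADCY9 is poorly activated by forskolin, a plant compound that stimulates the other membrane-bound isoforms. ADCY3 is the isoform of neuronal primary cilia, the single antenna-like organelle of most neurons, and its loss in mice and humans leads to obesity.

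*Gpr75* itself was measured first, although a frameshift need not remove the mRNA, so that its level says nothing of the genotype labels. On chow its authors' group means corresponded to 16.7 CPM (counts per 1000000 counts) in WT and 24.6 CPM in *Gpr75-/-* mice, a fold of 1.47 (95% interval 1.25 to 1.73, adjusted p = 0.0076 by the Wald test rebuilt from the authors' DESeq2 estimates). With a t distribution of 4 degrees of freedom 0 genes passed on either diet, and *Gpr75* on chow had an unadjusted p-value of 0.00994 and an adjusted p-value of 0.9999. On so few degrees of freedom that outcome was close to fixed beforehand. The oligodendrocyte gene *Aspa* on chow had an unadjusted p-value of 9.7e-09 by the Wald test and 0.0046 with the t distribution. Failing to pass there therefore tells little about a single gene. On the HFD the means were 19.9 and 18.4 CPM, with a fold of 0.956 and a wide interval of 0.598 to 1.53.

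All 8 cyclase genes were detected well above the filter on low means, with mean normalized counts between 356 and 1892 on chow and between 344 and 1856 on the HFD. To compare genes, counts were divided by the length of the longest transcript in kb, and the 95% intervals of these levels were taken from the standard error of the fold change. *Adcy2*, a Gβγ-stimulated isoform, had the highest level on both diets, with 397 normalized counts per kb on chow (378 to 417) and 441 on the HFD (423 to 459). It stood above 77.0% of protein-coding genes tested on chow and 77.8% on the HFD. *Adcy5*, known as the main isoform of the striatum, came next with 269.9 and 237 counts per kb. *Adcy3* ranked in the third place with 166 counts per kb on chow (156 to 176) and 177 on the HFD (168 to 186), close to the middle of all protein-coding genes (above 52.4% and 52.6%). *Adcy8* had 161 counts per kb on both diets. On chow the neighbours *Adcy3* and *Adcy8*, with a ratio of 1.03, did not differ beyond their error, nor did *Adcy8* and *Adcy1*, which had 152 counts per kb. On the HFD *Adcy3* stood 1.10 times above *Adcy8* with this length, outside the error of the counts, while *Adcy7* and *Adcy1* at 117 counts per kb each could not be separated. *Adcy9* and *Adcy6* had the lowest levels of the 8, between 66.2 and 71.5 counts per kb, and could not be separated on either diet with this length. The authors scaled the 2 tables apart, so levels on chow and on the HFD stand side by side without a comparison.

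As a share of the summed per-kb level of the 8 genes, *Adcy2* held 28.6% on chow and 31.7% on the HFD, *Adcy5* 19.5% and 17.1%, and *Adcy3* 11.95% and 12.7%. The order depends on the length used. The longest transcript has 12259 bases for *Adcy1*, against 4211 for *Adcy2*, 5621 for *Adcy3* and 7008 for *Adcy5*. The median transcript length was 3691 bases for *Adcy5* and 4211 for *Adcy2*. Per coding length, *Adcy1* came first on chow with 21.99%, before *Adcy2* with 20.2%, while on the HFD *Adcy2* stayed first with 23.1%, before *Adcy5* with 17.99% and *Adcy1* with 17.5%, and *Adcy3* moved from the third to the fifth place on both diets. With the median transcript length *Adcy5* came before *Adcy2* on both diets. Close pairs moved as well. Per coding length the ratio of *Adcy3* to *Adcy8* fell to 0.901 on chow and 0.962 on the HFD, that of *Adcy6* to *Adcy9* was 1.302 and 1.45, that of *Adcy8* to *Adcy1* on chow 0.542 and that of *Adcy7* to *Adcy1* on the HFD 0.496, so none of these orders is settled. The Gβγ-stimulated isoform *Adcy4*, outside the 8, was also listed, at 17.4 counts per kb on chow and 18.5 on the HFD. *Adcy10*, the soluble cyclase, was not among the genes listed.

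**Figure D1:**
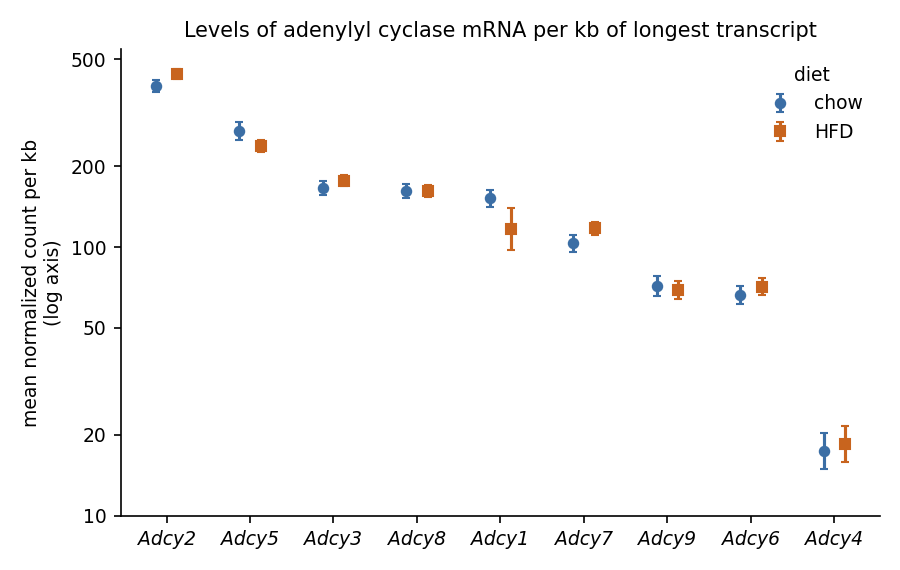
Mean normalized count per kb of the longest transcript (vertical log axis) of 9 adenylyl cyclase genes on chow (circles) and on the HFD (squares). Bars are 95% intervals derived from the standard error of the genotype fold change, and the 2 diets were normalized separately. *Adcy2* stands highest at 397 and 441, *Adcy3* lies at 166 and 177, and *Adcy4* lowest at 17.4 and 18.5.

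*Adcy3*, the ciliary isoform, had mirror-image group means on the 2 diets. On chow the authors' means corresponded to 53.0 CPM in WT and 48.1 CPM in *Gpr75-/-* mice, and on the HFD to 48.1 CPM in WT and 53.0 CPM in *Gpr75-/-* mice. The deposited means carry 2 decimals on a double log scale, which leaves each of these values uncertain by rounding between 47.4 and 48.9 or between 52.1 and 53.8 CPM. Its log2 fold change (*Gpr75-/-* over WT) was −0.10 on chow (SE 0.09), a fold of 0.932 with an interval of 0.823 to 1.06. On the HFD it was 0.13 (SE 0.07), a fold of 1.09 with an interval of 0.990 to 1.21. Neither passed the threshold of an adjusted p-value under 0.05 (adjusted p = 0.9996 on chow and 0.9999 on the HFD), and the unadjusted p-values were 0.264 and 0.0766. With these standard errors *Adcy3* would have passed at a fold of 0.765 or 1.31 on chow and of 0.819 or 1.22 on the HFD. These values are not exact limits. In bulk tissue, a difference in the number of cells that express a gene and a difference in RNA per cell cannot be told apart.

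Set against the other 7 isoforms, *Adcy3* on chow lay inside their range. Its log2 fold change minus that of each other gene ran from −0.15 (*Adcy6*) to 0.14 (*Adcy5*), it was above 3 of the 7, and the 95% interval of the difference held 0 for each of them. On the HFD *Adcy3* had the highest log2 fold change of the 8, above all 7 others by 0.02 (*Adcy7*) to 0.34 (*Adcy1*). *Adcy4*, outside the 8, lay higher at 0.31 (SE 0.22). The interval of the difference left out 0 for 1 of the 7, *Adcy2*, at 0.19 (0.01 to 0.38). The intervals take the errors of 2 genes as independent, although both were measured in the same mice and the tables do not hold their shared error, so no p-value is given. With errors taken as fully and positively correlated, the intervals left out 0 for 5 of the 7 on chow and 5 of the 7 on the HFD. Such an interval all but closes where 2 standard errors are alike, as for *Adcy8* on the HFD (0.1533 to 0.1537). The count under it is therefore no evidence that *Adcy3* differs from an isoform. Negatively correlated errors, which would widen the intervals, were not tried, so the count is not settled by the tables.

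**Figure D2:**
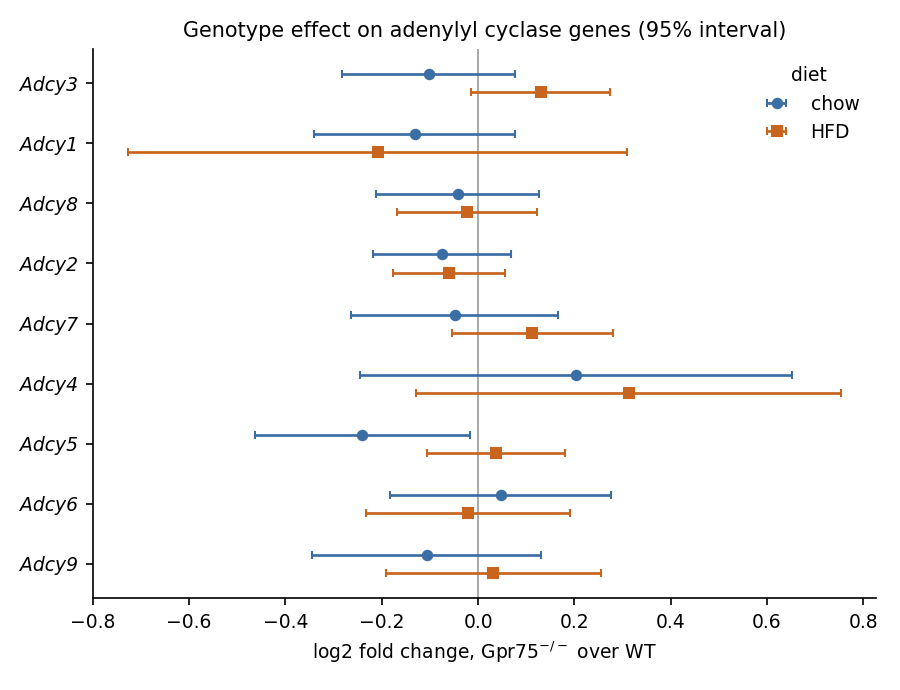
Genotype effect, as log2 fold change (*Gpr75-/-* over WT, horizontal axis), for 9 adenylyl cyclase genes, on chow (circles) and on the HFD (squares), with 95% intervals from 3 mice a group. The intervals hold 0 except for *Adcy5* on chow at −0.24, and *Adcy3* lies at −0.10 on chow and 0.13 on the HFD.

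The other calcium-responsive isoforms were *Adcy1*, best known from cortex, hippocampus and thalamus, and *Adcy8*. *Adcy8* had 62.4 CPM in WT and 60.4 CPM in *Gpr75-/-* mice on chow, and 58.4 and 56.5 CPM on the HFD. Its log2 fold changes, −0.04 (SE 0.09) and −0.02 (SE 0.07), lay within 1 standard error of 0. *Adcy1* had 106 CPM in WT and 94.9 CPM in *Gpr75-/-* mice on chow, and 76.6 and 66.8 CPM on the HFD. Its folds were 0.913 (0.790 to 1.05) and 0.866 (0.605 to 1.24).

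The *Adcy1* standard error on the HFD, 0.26, was the largest of the 16 member values and was 8.49 times the error expected from counting alone, a ratio above that of 99.7% of genes tested. On chow the ratio was 3.90, and the median over all genes was 2.02 on chow and 1.90 on the HFD. High ratios were also found for 4 of 5 genes with high levels in thalamus and cortex, although without values of single mice it is not known whether they varied in the same mice as *Adcy1*. High ratios were not confined to such genes. They reached 11.3 among oligodendrocyte markers and 9.67 among general neuronal markers on the HFD. The median ratio there was 3.34 for oligodendrocyte markers, 3.95 for general neuronal markers and 8.30 for markers of thalamus and cortex. On the HFD the ratio was 12.6 for *Prkcd*, 12.2 for *Tcf7l2*, 8.30 for *Rora* and 6.64 for *Slc17a7*, the vesicular glutamate transporter of cortex, and on chow it was 5.47, 5.24, 4.995 and 8.08, so that of *Slc17a7* was higher on chow. The exception was *Neurod6*, a marker of cortical neurons with a ratio of 1.68 on the HFD, where its log2 fold change of 0.70 (SE 0.34) had the opposite sign to those of the other 4. Of the 5 markers of thalamus and cortex, 4 had a lower mean in *Gpr75-/-* mice on the HFD, with a median log2 fold change of −0.29 and 0 past the threshold, and 2 of 5 on chow, with a median of 0.03. Their summed group means were 785 CPM in WT and 795 CPM in *Gpr75-/-* mice on chow, and 647 and 542 CPM on the HFD. *Tcf7l2* was the most abundant of them, and *Neurod6* was under 3 CPM in every group. Their part in the *Adcy1* value was not tested.

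Among the Gβγ-stimulated isoforms, *Adcy2* was the most precisely measured member. It had 94.9 CPM in WT and 88.3 CPM in *Gpr75-/-* mice on chow and 98.4 and 94.9 CPM on the HFD, with folds of 0.950 (0.860 to 1.05) and 0.959 (0.884 to 1.04). The interval on the HFD leaves out a loss of more than 11.6% and a gain of more than 3.9%. *Adcy7*, which is also abundant in immune cells, had 33.4 and 32.5 CPM on chow, a log2 fold change of −0.05 (SE 0.11). On the HFD it had 34.4 CPM in WT and 37.6 CPM in *Gpr75-/-* mice, a log2 fold change of 0.11 (SE 0.09), the value nearest to that of *Adcy3*. *Adcy4* had log2 fold changes of 0.20 (SE 0.23) and 0.31 (SE 0.22), with intervals that hold 0.

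Of the isoforms inhibited by calcium and Gα_i_, *Adcy5* gave the lowest value of the family on chow. Its authors' means were 109.99 CPM in WT and 94.9 CPM in *Gpr75-/-* mice, a fold of 0.847 with an interval of 0.725 to 0.989. The unadjusted p-value was 0.0354, or 0.103 with a t distribution of 4 degrees of freedom, and the adjusted p-value 0.9996. On the HFD the means were 82.2 and 85.2 CPM, a fold of 1.03 (0.929 to 1.13). *Adcy6*, the more widely expressed relative, had 21.5 and 22.1 CPM on chow and 22.1 CPM in both genotypes on the HFD, with log2 fold changes of 0.05 (SE 0.12) and −0.02 (SE 0.11). *Adcy9*, the forskolin-insensitive isoform, had 19.9 and 18.9 CPM on chow and 17.6 and 17.99 CPM on the HFD, with log2 fold changes of −0.11 (SE 0.12) and 0.03 (SE 0.11).

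Transcripts of the striatum, where *Adcy5* is the main isoform, had lower means in *Gpr75-/-* mice on chow together with *Adcy5*. All 5 striatal markers had a log2 fold change under 0 there, with a median of −0.94 and 0 past the threshold. The dopamine receptor gene *Drd2* had −0.32 (SE 0.13). *Drd1* and *Ppp1r1b* had −0.94 and −0.98, but with standard errors of 0.72 and 0.71 that were 10.3 and 13.2 times the counting error. *Rgs9*, the most abundant of the 5, had −0.35 (SE 0.28). On the HFD the median was −0.03 and 2 of 5 were above 0. Among genes of the cAMP pathway known for high striatal levels, named after their values were seen, values on chow differed. *Gng7*, the γ subunit paired with Gα_olf_, had −0.65 (SE 0.45), *Pde10a* −0.38 (SE 0.29) and *Akap5* −0.71 (SE 0.39), while *Gnal* had −0.11 (SE 0.08) and *Pde7b* 0.04 (SE 0.19). On the HFD, where *Adcy5* had 0.04, *Gng7* had −0.20 (SE 0.07), *Pde10a* −0.10 (SE 0.09), *Akap5* −0.13 (SE 0.13), *Gnal* −0.16 (SE 0.05) and *Pde7b* 0.15 (SE 0.17). The part of these transcripts in the *Adcy5* value was not tested.

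**Figure D3:**
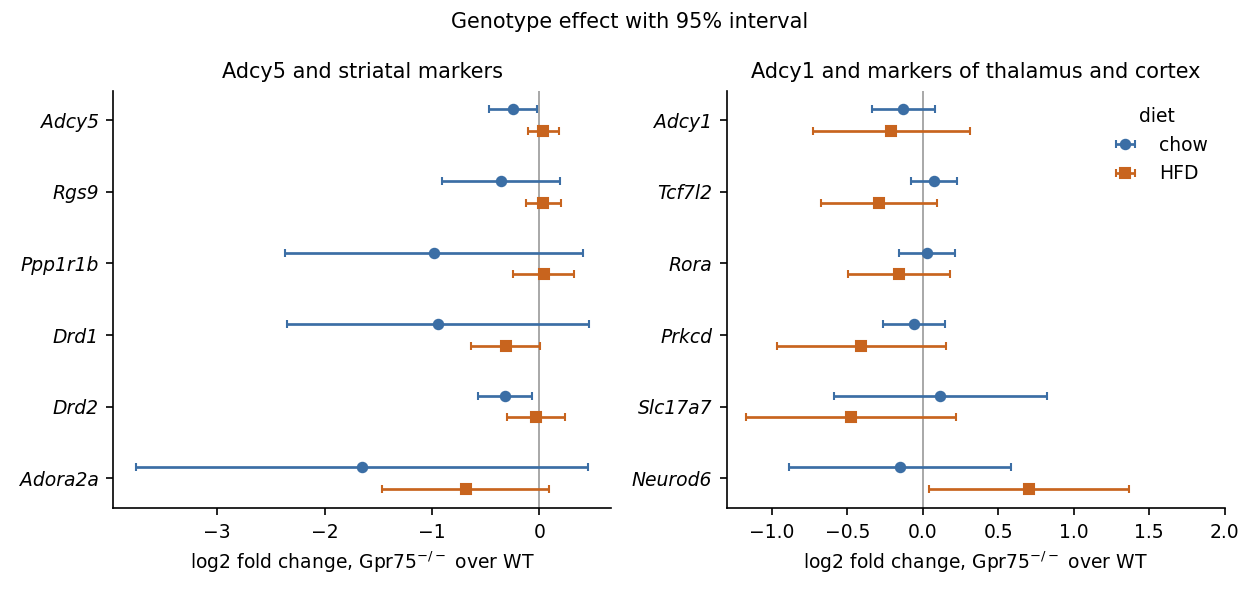
Genotype effect, as log2 fold change (*Gpr75-/-* over WT, horizontal axes with different ranges), with 95% intervals on chow (circles) and on the HFD (squares). *Adcy5* is shown with 5 striatal markers, which all lie under 0 on chow, and *Adcy1* with 5 markers of thalamus and cortex, of which 4 lie under 0 on the HFD.

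Across the family, 0 of the 8 genes passed an adjusted p-value under 0.05 on chow, where 10 of 16191 genes (0.0618%) did, and 0 of 8 on the HFD, where 32 of 16089 (0.199%) did. At an unadjusted p-value under 0.05 the counts were 1 of 8 on chow (*Adcy5*) against 4.68% of all genes, and 0 of 8 on the HFD against 4.49%. On chow 7 of the 8 had a lower mean in *Gpr75-/-* mice, with a median log2 fold change of −0.09 against −0.00292 over all genes, and *Adcy6* was the exception. On the HFD 4 were lower and 4 higher, with a median of 0.01 against 0.00447. The median size of the log2 fold change, regardless of sign, was 0.09 for the 8 and 0.08 for all genes on chow, and 0.05 and 0.07 on the HFD. The 16 folds lay between 0.847 and 1.09. The summed group means of the 8 genes per kb were 78.4 CPM per kb in WT and 72.4 in *Gpr75-/-* mice on chow, and 71.2 in both on the HFD. The share of *Adcy3* in that sum was 12.0% in WT and 11.8% in *Gpr75-/-* mice on chow, and 12.0% and 13.2% on the HFD.

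The fold at which a gene would have passed the test, taken at 4.22 standard errors on chow and 3.91 on the HFD, differed among the members. On chow it ran from 1.24 for *Adcy2* to 1.43 for *Adcy9*, and on the HFD from 1.17 for *Adcy2* to 2.05 for *Adcy1*. These folds hold for 3 mice a group and these errors. They are not exact limits, because the Benjamini-Hochberg cut eases with each further gene that passes, so slightly smaller differences could have passed. Standard errors were 1.79 to 8.49 times the counting error. The p-values rest on the standard errors fitted by the authors' DESeq2 run, not on a spread of each gene's samples computed here. Differences between mice and between library preparations cannot be told apart in them. The study used littermate controls, and which mice of these groups were littermates is not given in the sources used here.

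The genotype effects on the 2 diets come from different mice, so their difference can be tested. For *Adcy3* the log2 fold change on the HFD minus that on chow was 0.23 (95% interval 0.0023 to 0.46, unadjusted p = 0.0477). For *Adcy5* it was 0.28 (0.01 to 0.54, unadjusted p = 0.0406). Neither held after adjustment over all genes (adjusted p = 0.9996 for both). With a t distribution of 8 degrees of freedom the unadjusted p-values were 0.0831 and 0.0748, and with fold changes centred on their median that of *Adcy3* was 0.0532. The other 6 differences lay between −0.08 for *Adcy1* and 0.16 for *Adcy7*, with intervals that hold 0. Of all 15893 genes tested on both diets, 0 (0%) passed an adjusted p-value under 0.05 in this test, and 460 (2.89%) had an unadjusted p-value under 0.05, against 2 of the 8 members. The effects had the same sign on both diets for 3 of the 8 members, *Adcy1*, *Adcy2* and *Adcy8*, and for 53.9% of all genes.

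The rest of the cAMP pathway was followed in 9 lists of 94 genes, of which 89 were tested on chow and 90 on the HFD. On either diet 0 of them passed the adjusted threshold, and at an unadjusted p-value under 0.05 there were 8 of 89 (8.99%) on chow, against 4.68% of all genes, and 7 of 90 (7.78%) on the HFD, against 4.49%. Over all genes 51.1% had a lower mean in *Gpr75-/-* mice on chow and 48.0% on the HFD. Upstream, 3 of 7 Gα genes that act on adenylyl cyclase had higher means in *Gpr75-/-* mice on each diet (median log2 fold change −0.02 on chow and −0.05 on the HFD). The smallest p-values belonged to *Gnai3*, an inhibitory subunit, on chow at 0.23 (SE 0.08, adjusted p = 0.712) and to *Gnal*, which encodes Gα_olf_, on the HFD at −0.16 (SE 0.05, adjusted p = 0.451). Of 12 Gβ and Gγ genes 6 were higher and 6 lower on each diet, with medians of −0.00506 and 0.00199. *Gng2* had 0.10 (SE 0.06) on chow, and *Gng12* had −0.18 (SE 0.06, adjusted p = 0.256) on the HFD.

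Calcium inputs, which feed ADCY1, ADCY3 and ADCY8 through calmodulin and act back on cyclases through calmodulin-dependent kinases and protein kinase C, had 8 of 10 genes lower on chow and 7 of 10 on the HFD, with medians of −0.02 and −0.05. *Camk4* had −0.27 (SE 0.12) on chow and *Camk2a* −0.17 (SE 0.06) on the HFD. Downstream, phosphodiesterases break cAMP down. On chow 12 of 16 had a lower mean in *Gpr75-/-* mice, against 51.1% of all genes, with a median of −0.15. On the HFD 8 of 16 were lower, with a median of −0.00372. At an unadjusted p-value under 0.05 there were 3 of 16 on chow, against 4.68% of all genes, and 0 of 16 on the HFD, against 4.49%. Calcium inputs had 2 of 10 on each diet, and Gβ and Gγ genes 0 of 12 on chow and 2 of 12 on the HFD. Each of the other pathway lists had at most 1 on either diet. The calmodulin-activated *Pde1c* had the smallest p-value of the pathway on chow, with 22.1 CPM in WT and 16.7 CPM in *Gpr75-/-* mice, a fold of 0.743 (0.625 to 0.883, adjusted p = 0.299). On the HFD the smallest p-value among phosphodiesterases was that of *Pde7a*, at −0.13 (SE 0.10).

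Genes of protein kinase A, the main cAMP target, were 5 of 9 higher on chow and 7 of 9 on the HFD, with medians of 0.01 on both. *Prkacb*, a catalytic subunit, had 0.10 (SE 0.06) on chow, and the kinase inhibitor *Pkib* 0.14 (SE 0.10) on the HFD. A-kinase anchoring proteins, which hold the kinase near its substrates, were 8 of 10 lower on chow and 7 of 10 on the HFD, with medians of −0.07 and −0.04. *Akap9* had −0.19 (SE 0.07, adjusted p = 0.787) on chow and *Akap13* −0.21 (SE 0.10) on the HFD. Of the other cAMP effectors, exchange factors and cyclic nucleotide-gated channels among them, 1 of 6 was higher on chow and 5 of 7 on the HFD, with medians of −0.04 and 0.02. The channel gene *Hcn2* had −0.10 (SE 0.08) on chow and the exchange factor *Rapgef4* −0.09 (SE 0.05) on the HFD. The CREB transcription factors and their coactivators were 6 of 8 lower on chow and 5 of 8 on the HFD, with medians of −0.06 and −0.02. *Crebbp* had −0.12 (SE 0.06) on chow and *Creb1* −0.20 (SE 0.09) on the HFD.

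Primary cilium genes share the compartment of ADCY3. Of 11 such genes 6 had higher means in *Gpr75-/-* mice on chow and 8 on the HFD, with medians of 0.04 and 0.02, and 0 passed the adjusted threshold. *Tub*, a trafficking protein of neuronal cilia, had 0.14 (SE 0.07) on chow, and *Ift88*, part of the intraflagellar transport machinery, −0.14 (SE 0.11) on the HFD. *Kif3a* was the most abundant of the list.

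The tissue label was checked against markers. Among hypothalamic neuropeptide genes 9 of 10 were listed, with *Pmch* the most abundant at 245 CPM in WT and 256 CPM in *Gpr75-/-* mice on chow and at 225 and 292 CPM on the HFD, and *Kiss1* was the gene not listed. On the HFD, where *Adcy3* had its higher mean in *Gpr75-/-* mice, 9 of 9 of these genes were higher, with a median log2 fold change of 0.28. Of these, 1, *Pmch*, passed the threshold at 0.37 (SE 0.07, adjusted p = 0.00075), against 0.199% of all genes. With the t distribution, under which 0 genes passed on either diet, *Pmch* did not. Over all genes 48.0% had a lower mean in *Gpr75-/-* mice on the HFD and 51.1% on chow. On chow 7 of 9 were higher, with a median of 0.02 and 0 past the threshold. Their summed group means were 756 CPM in WT and 787 CPM in *Gpr75-/-* mice on chow, and 748 and 902 CPM on the HFD. Their part in the *Adcy3* value was not tested.

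General neuronal markers, led by *Snap25*, were 7 of 9 lower on chow and 8 of 9 on the HFD, with medians of −0.03 and −0.05 and 0 past the threshold. Their sums were 5627 CPM in WT and 5466 CPM in *Gpr75-/-* mice on chow, and 5400 and 5299 CPM on the HFD. Oligodendrocyte markers, led by the myelin gene *Mbp*, were 11 of 11 lower on both diets. On chow 1 passed the threshold, against 0.0618% of all genes, and the median was −0.17, and on the HFD 5 passed, against 0.199%, and the median was −0.24. With the t distribution, under which 0 genes passed on either diet, 0 of them passed, nor did *Pmch*. Their sums were 7238 CPM in WT and 6523 CPM in *Gpr75-/-* mice on chow, and 7877 and 6864 CPM on the HFD. Astrocyte markers, led by *Slc1a3*, had medians of 0.04 and −0.02, microglial markers, led by *Csf1r*, −0.04 and −0.03, and endothelial markers, led by *Flt1* and *Slco1a4*, −0.10 and −0.09, with 0 past the threshold in these 3 lists. All 8 choroid plexus markers listed on chow had higher means in *Gpr75-/-* mice, with a median log2 fold change of 2.30, but 5 of them (*Ttr*, *Kl*, *Folr1*, *Kcnj13* and *F5*) are among the 11 genes of that table with no p-value, a blank that the authors' DESeq2 run gives a gene with an outlying library. *Ttr* had 5.04 there with a standard error of 2.21, which is 101 times its counting error, and its group means of 5.59 and 12.9 CPM fall far short of the 159 CPM of its mean normalized count, so no sums are given for this list. The other 3 had a median of 0.53 and 0 past the threshold. On the HFD 5 were listed and tested, with a median of −0.04 and 1, *Ttr*, past the threshold at −1.49 (SE 0.33). With the t distribution, under which 0 genes passed, *Ttr* did not. By the mean normalized count *Ttr* was the most abundant on chow and *Clic6* on the HFD, while by the group means *Clic6* was on both. The part of these cells in the cyclase values was not tested.

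By position (GRCm39, as deposited), the 8 genes lie on 6 chromosomes. *Adcy3* (ENSMUSG00000020654) is at chr12:4183103-4263525. *Adcy6* and *Adcy8* share chromosome 15 and *Adcy5* and *Adcy9* chromosome 16, each pair far apart. The genes span from 20.1 kb for *Adcy6* to 379 kb for *Adcy2*. *Cenpo*, a kinetochore gene with a mean of 93.3 normalized counts on chow and 92.3 on the HFD, overlaps *Adcy3* over 17522 bases, and no other listed gene overlaps a member. Whether the counting used strand is not given in the sources used here, so reads in the overlap may have been assigned to either or neither gene. The log2 fold change of *Cenpo* was 0.08 (SE 0.22) on chow and 0.17 (SE 0.21) on the HFD. *Pomc*, a neuropeptide gene of feeding neurons, lies 172 kb from *Adcy3* on the same chromosome, with −0.25 (SE 0.18) on chow and 0.44 (SE 0.12, adjusted p = 0.0621) on the HFD. The gene between them that is nearest to *Adcy3*, *Dnajc27*, had 0.05 (SE 0.06) and −0.00065 (SE 0.05).

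Among 5139 genes with a mean within 2-fold of that of *Adcy3* on both diets, the 3 with the most similar pair of log2 fold changes over the 2 comparisons were *Cygb*, *Tcerg1l* and *Hpcal1*, at Euclidean distances of 0.0033, 0.0041 and 0.0050. Their log2 fold changes were −0.10 to −0.11 on chow and 0.13 on the HFD, with standard errors of 0.07 to 0.11, so these distances are far under the error of each value.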

How the data were processed

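RNA from the hypothalamus of 12 mice was made into libraries with a SMART-Seq mRNA kit. The submitters' processing notes name STAR, featureCounts, StringTie, DESeq2 and GRCm39, with no versions. The authors ran DESeq2 on raw counts of each diet and deposited 1 table of results per diet. The signal deposited for each gene is the mean normalized count over 6 mice. The log2 fold changes with standard errors were used as the authors deposited them, because the tables hold no values of single mice. The deposited Wald statistics and the deposited p-values and adjusted p-values were not printed, and blanks in the deposited adjusted p-value served to find the genes to test. Most blanks are genes with low means, and 11 genes on chow and 6 on the HFD lack the p-value too, the authors' DESeq2 mark of an outlying library. The deposited group means are on a log2 scale of 1 plus the log2 CPM, a reading checked on genes with a mean over 300, where the mean of both groups lay within 0.01 of that expected for 99.0% of genes on chow and 99.4% on the HFD. They were converted to CPM and carry no SD. For the 8 members their average was 97.1% to 101% of the CPM from the mean normalized count, but for genes with a large spread they are not mean CPM, with 84.2% for *Drd1* and 5.81% for *Ttr* on chow, so lists with such genes are given without sums.

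The quotient of log2 fold change and standard error was tested against the normal distribution (2-sided) and adjusted by Benjamini-Hochberg over the 16191 genes kept on chow, 16089 on the HFD and 15893 on both. The difference between diets used the root of the summed squared errors. Levels per kb used GENCODE M21 transcript lengths (GRCm38), matched by Ensembl identifier for 99.8% of genes, with no coordinates taken from it. The error of a level was taken as the standard error of the fold change over 2, which assumes an equal spread in both genotypes. The counting error was that of Poisson counts in 3 mice a group. The median standard error was 0.12 on chow and 0.11 on the HFD.

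The members and lists were chosen with earlier results of these data known. Some marker genes are not reported here, and the counts, medians, sums and most abundant genes of the marker lists are without them. Genes named are the cyclases, *Gpr75*, the gene with the smallest p-value of each pathway list on each diet (or any that passed), the most abundant gene of each marker list and the 3 genes most like *Adcy3*. Other genes of the lists, and genes named for their position near *Adcy3*, were chosen after their values were seen. Alternatives were filters, protein-coding genes, Bonferroni adjustment, scaled statistics, a t distribution, centring, gene lengths and correlated errors. The steps were tested on fold changes drawn with independent normal errors of the deposited size. That checks the calculation alone, not whether those errors or the normal distribution hold for 3 mice a group. Python 3.11.15 was used with numpy 2.4.6, pandas 2.3.3, scipy 1.17.1 and matplotlib 3.10.9.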

Additional observations from a re-analysis of the deposited data

How the results depend on the processing

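Each of the 8 cyclase genes stayed short of the threshold on chow, on the HFD and in the difference between diets under the 7 alternatives run, which were 2 filters (none, or means from 100 upward), a restriction to protein-coding genes, Bonferroni, statistics over their scaled median absolute deviation, a t distribution and centring on the median, with adjusted p-values from 0.647 to 1. The fold changes are the same in all of these but centring, which left each direction as it was. Unadjusted p-values under 0.05 were less stable. With a t distribution 0 of 8 genes had one on chow (1 as reported) and 0 in the difference between diets (2 as reported), centring left 1 of those 2, *Adcy5*, and with scaled statistics 1, *Adcy3*, had one on the HFD (0.0408, 0 as reported). Counts over all genes moved more. With scaled statistics 20 genes passed on chow, 93 on the HFD and 2 in the difference between diets, and 1 gene of the pathway, *Gng12*, passed on the HFD (adjusted p = 0.0404). With a t distribution of 4 degrees of freedom 0 passed on chow and 0 on the HFD, an outcome close to fixed by so few degrees of freedom. Bonferroni adjustment left 11 on the HFD. The scaling divides statistics by 0.927, 0.866 and 0.859, and the t distribution has heavier tails, which sets these directions.

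The share of *Adcy3* in the family on chow was 10.7% per coding length and 10.5% with no length. Where the errors of 2 genes were taken as fully and positively correlated, 5 of 7 intervals of *Adcy3* minus another isoform left out 0 on chow and 5 of 7 on the HFD. That extreme leaves only the difference of the standard errors, so its intervals are narrow wherever these are alike.

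No paired analysis was possible because the tables hold no values of single mice. For the same reason leaving out a replicate and a refit of counts by another tool were not run.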
